A study of Mus musculus with 14 samples.

Results

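Signals of 10 genes of the p53 pathway and of the cell death machinery were followed through mouse spinal motoneurons, interneurons and stem cell-derived progenitors. The genes were chosen by name and are Trp53, Cdkn1a, Zmat3, Ccng1, Mdm2, Trp53inp1, Bax, Bbc3, Pmaip1 and Bcl2. All 10 were found among the 23523 gene entries of the deposited table, and all 10 passed the minimum signal in each comparison. The libraries of polyadenylated RNA belong to work on miR-218, a microRNA found in motoneurons. The 218DKO motoneurons (DKO, 2 libraries) carried the mutation that the labels call 218DKO, which removes both miR-218 genes. The wild-type motoneurons (WT) gave 6 libraries. DKO and WT cells both carried the Hb9::gfp reporter, in which the promoter of the motoneuron gene Mnx1 drives green fluorescent protein, and were sorted as GFP-positive cells from E12.5 spinal cords. V1, V2a and V3 interneurons came from wild-type E12.5 cords, 1 library each, and were sorted for tdTomato from En1:cre, Chx10:cre and Sim1:cre lines with Rosa26:LSL:tdTomato. Such a Cre reporter stays on in the descendants of any cell that once expressed the driver. The pMN and NP libraries, 1 each, came from wild-type embryonic stem cells of the mouse (mES) that had differentiated for 4 days with retinoic acid and a sonic hedgehog agonist. pMN cells were sorted for tdTomato from Olig2:cre;Rosa26:LSL:tdTomato, and NP cells had no reporter and were not sorted.

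The protein p53, encoded by Trp53, is a transcription factor that is made continuously and destroyed through the ubiquitin ligase Mdm2, whose own gene p53 activates. When DNA damage or another stress frees p53 from Mdm2, it switches on genes that stop division, help repair or start apoptosis. Death through the mitochondrial route turns on Bax, which opens the outer mitochondrial membrane, on Bcl2 and its relatives, which hold Bax in check, and on BH3-only proteins such as those of Bbc3 and Pmaip1, which counter Bcl2. In the embryonic spinal cord many motoneurons die by this route soon after their axons reach muscle, and mice without Bax keep them.

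The deposited signal is not a read count. Its formula is not given in the sources used here, and its low values behaved as reads divided by transcript length and scaled between libraries. Levels and ratios of different genes below rest on that reading of the unit. Approximate depths were 7.42 and 15.57 M reads in the DKO libraries, 11.81 to 28.51 M in WT, 16.26 to 17.49 M for interneurons and 23.46 to 25.97 M for progenitors. Pmaip1 rested on about 9 to 40 reads in each spinal library, and the other members on at least 49 reads in every library. Mnx1, whose promoter drives the reporter, was at 3863 to 4330 in DKO and 2194 to 3995 in WT motoneurons, against at most 7.46 in the interneurons. Mature miR-218 is not measured by polyadenylated RNA, so the genotype could not be checked on the deleted RNA itself. The libraries of WT replicates 2, 3 and 4 stood apart in Rn45s, the ribosomal RNA precursor, at 10197, 27943 and 14356, while the other WT libraries had 644 to 4275. The sum of 3 V1 interneuron markers was 592 to 600 in DKO and 181 to 403 in WT motoneurons, and the part of such cells in the results below was not tested. Of 6 motoneuron markers, the V2a library had Slc18a3 at 1202 and Chat at 308.8, while Mnx1 (7.46), Isl1 (34.4), Isl2 (7.63) and Slc5a7 (3.56) were near absent.

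Because the DKO cells lack miR-218, its sequence and the only match to it among the members are shown first. The seed, bases 2 to 8, is in capitals in the RefSeq sequence (GRCm38.p6), which both genes encode, at chr5:48223966-48223986 and chr11:35616840-35616860, each on the + strand.
miR-218-5p: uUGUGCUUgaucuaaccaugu
Matches were searched as AAGCACAA, AAGCACA or AGCACAA on the sense strand of annotated 3′ UTRs, where the shorter motifs lie inside the longest. Of the 10 members, 1 had a match, AAGCACA in Trp53inp1 on chromosome 4, at position 1451 of a 3′ UTR of 4420 bases.
Trp53inp1 3′ UTR: acagcttgAAGCACAttctaata
The capitals mark the motif. Of 14713 tested genes with a 3′ UTR, 19.6% held at least 1 of the 3 motifs, and their median log2 difference between DKO and WT was 0.16, against -0.05 for genes with no match.

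The first question was what loss of miR-218 does to these genes in motoneurons. Trp53, Cdkn1a and Zmat3 fell in DKO motoneurons, by 0.52, 0.74 and 0.54 on the log2 scale, and no member passed the test in the other direction. Mdm2, Trp53inp1 and Pmaip1 had higher means in DKO cells without passing. Bax and Bcl2, the pore former and its inhibitor, had nearly equal means in both genotypes. The 3 of 10 members that fell stand against 4.77% of all 16260 genes tested, and the 0 of 10 that rose against 3.22%. An unadjusted p below 0.05 was reached by 6 members (limma). The share of all genes at that unadjusted level is not given here. This count and later ones of its kind therefore do not show an excess. The members' median log2 difference was -0.16, against 0.00 over all genes. Fewer cells of a type and less RNA per cell cannot be told apart in these sorted bulk samples.

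Trp53 (chr11:69580359-69591873, + strand) had signals of 278.9 and 309.3 in the DKO libraries, against 367.6 to 466.6 with a median of 425.7 in WT. Both DKO libraries lay below every WT library. The log2 difference was -0.52 ± 0.12 (SE; n = 2 DKO and 6 WT; limma, adjusted p = 0.0273). Cdkn1a (chr17:29090976-29100727, + strand) encodes the cyclin-dependent kinase inhibitor p21, the classic p53 target that halts the cell cycle. Its signal was 91.6 and 71.3 in DKO motoneurons, against 118.2 to 178.4 with a median of 131.5 in WT motoneurons. The groups did not overlap, and the difference was -0.74 ± 0.18 (limma, adjusted p = 0.0282), with means of 81.5 ± 14.4 in DKO and 137.1 ± 21.0 in WT (SD). Zmat3 (chr3:32334792-32366014, - strand) encodes a zinc finger RNA-binding protein under p53 control. It had 176.5 and 171.9 in DKO motoneurons, against 205.6 to 291.3 with a median of 259.4 in WT motoneurons. Here too both DKO libraries were below all 6 WT libraries (-0.54 ± 0.14; limma, adjusted p = 0.0444).

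These calls rested on both DKO libraries. Without DKO replicate 1 or DKO replicate 2, none of the 10 members passed, with adjusted p of 0.115 and 0.292 for Cdkn1a, 0.263 and 0.148 for Trp53, and 0.249 and 0.276 for Zmat3 (limma). Cdkn1a passed without any 1 WT library, Trp53 missed without WT replicate 3 (0.0504) or 4 (0.0541), and Zmat3 missed without WT replicate 3, 4, 5 or 6 (0.0601 to 0.077). With a constant variance prior all 3 missed, at 0.0525 for Cdkn1a, 0.0616 for Trp53 and 0.0802 for Zmat3. Zmat3 also missed with no filter on low signal (0.0507). With the replicate number as a block all 3 missed too, at 0.254 for Cdkn1a, 0.278 for Trp53 and 0.321 for Zmat3 (limma, adjusted p). Against WT replicates 2, 3 and 4 alone the log2 differences of Cdkn1a and Zmat3 were -0.83 and -0.55, and against WT replicates 1, 5 and 6 alone they were -0.66 and -0.53, with Zmat3 then at an adjusted p of 0.0584.

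**Figure D1:**
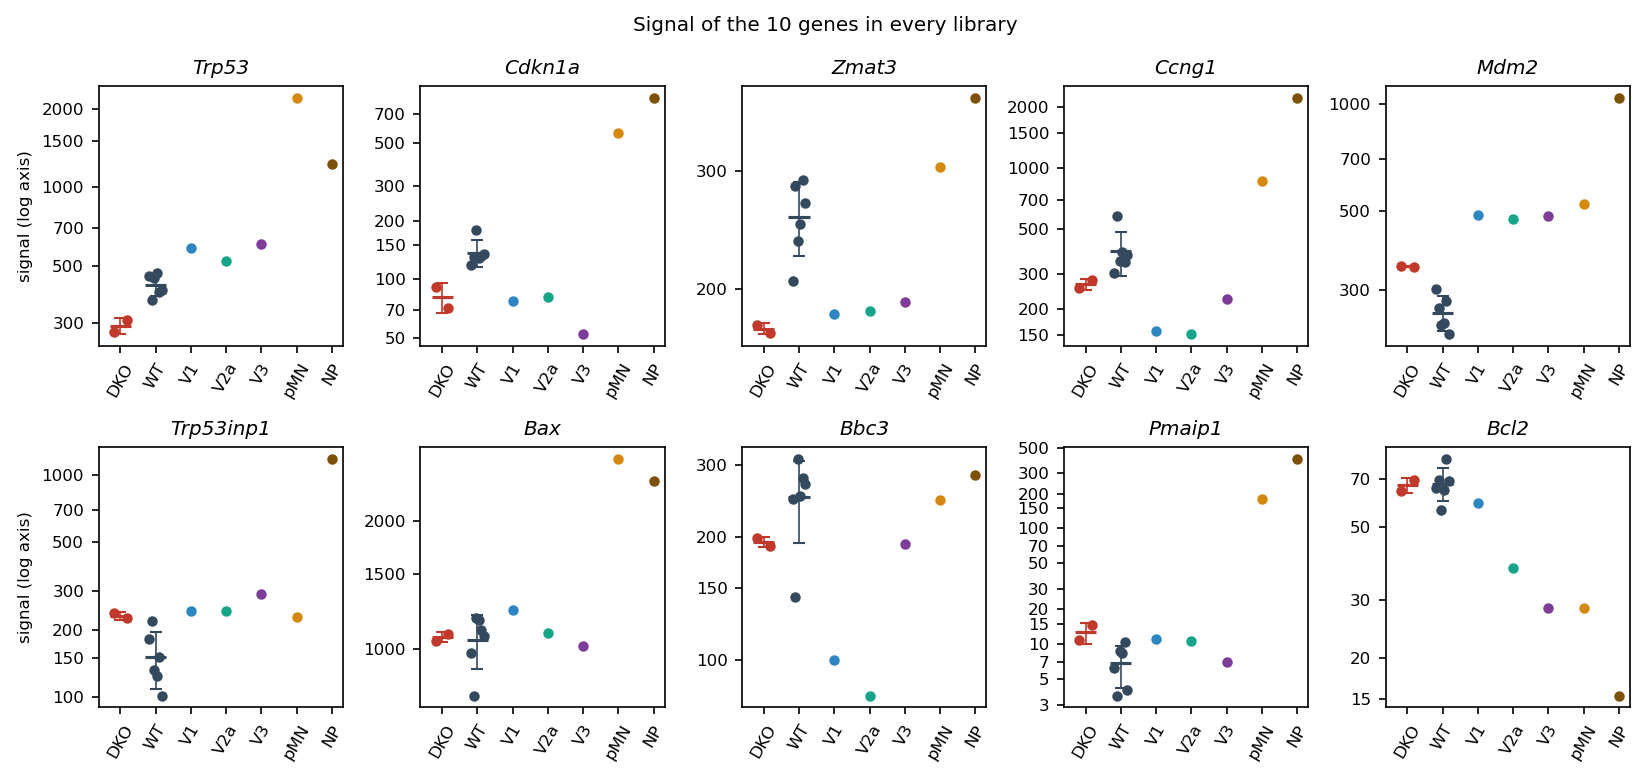
Signal (log axis, its range set per gene) of each of the 10 genes in every library; points are libraries, and bars are the mean and SD of the 2 DKO and 6 WT libraries. For Trp53, Cdkn1a and Zmat3 both DKO points lie below all WT points, while Pmaip1 is at 181.2 in pMN and 396.6 in NP and under 15 in every spinal library.

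Of the members that limit p53 or carry its signal onward, Mdm2 and Trp53inp1 were at higher signal in DKO cells and Ccng1 at lower signal, none past the threshold. Mdm2 (chr10:117688875-117710758, - strand) had 351.3 and 349.1 in DKO motoneurons, against 225.8 to 301.4 with a median of 255.0 in WT. The groups did not overlap, but the difference of 0.44 ± 0.13 missed the threshold (limma, adjusted p = 0.0622). It passed under quantile normalization (0.0448), against WT replicates 2, 3 and 4 alone (0.0371), and without WT replicate 1 (0.0385) or WT replicate 2 (0.0475). Trp53inp1 (chr4:11156431-11174379, + strand), a nuclear p53 cofactor gene and itself a p53 target, is the member with the miR-218 match printed above. Its signal was 238.4 and 225.6 in DKO, against 101.0 to 220.4 with a median of 142.0 in WT. Both DKO values were above all WT values, by a narrow margin over WT replicate 2 (0.66 ± 0.25; limma, adjusted p = 0.123, and 0.0368 without that library). Ccng1 (chr11:40748552-40755311, - strand), the gene for cyclin G1, which recruits a phosphatase to Mdm2, had 255.4 and 278.8 in DKO, against 303.0 to 577.9 with a median of 360.7 in WT (-0.51 ± 0.20; limma, adjusted p = 0.139). Its groups did not overlap either.

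Within the death genes, the DKO and WT values lay inside each other for Bax, Bbc3 and Bcl2. Bax (chr7:45461697-45466898, - strand) had 1046 and 1087 in DKO motoneurons, against 776.7 to 1183 in WT motoneurons (0.04 ± 0.15; limma, adjusted p = 0.894). Bcl2 (chr1:106538178-106714274, - strand) had 64.5 and 69.7 in DKO, against 56.3 to 80.4 in WT (-0.01 ± 0.17; limma, adjusted p = 0.989). Bbc3, also called PUMA (chr7:16308393-16318205, + strand), had 198.3 and 190.3 in DKO, against 142.2 to 309.0 with a median of 260.6 in WT. WT replicate 2 was the single WT library below the DKO values, and without it the difference of Bbc3 passed the test (limma, adjusted p = 0.0257), while with it the value was -0.32 ± 0.24 (adjusted p = 0.413). The same omission brought the members that passed to 4 lower and 2 higher in DKO, where Mdm2 and Trp53inp1 were the higher ones. Pmaip1, also called NOXA (chr18:66458533-66465565, + strand), was near the detection limit, at 10.8 and 14.6 in DKO and 3.58 to 10.4 in WT (0.86 ± 0.42; limma, adjusted p = 0.213). In all, the DKO and WT ranges of 7 of the 10 members did not overlap, against 30.7% of all genes tested.

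**Figure D2:**
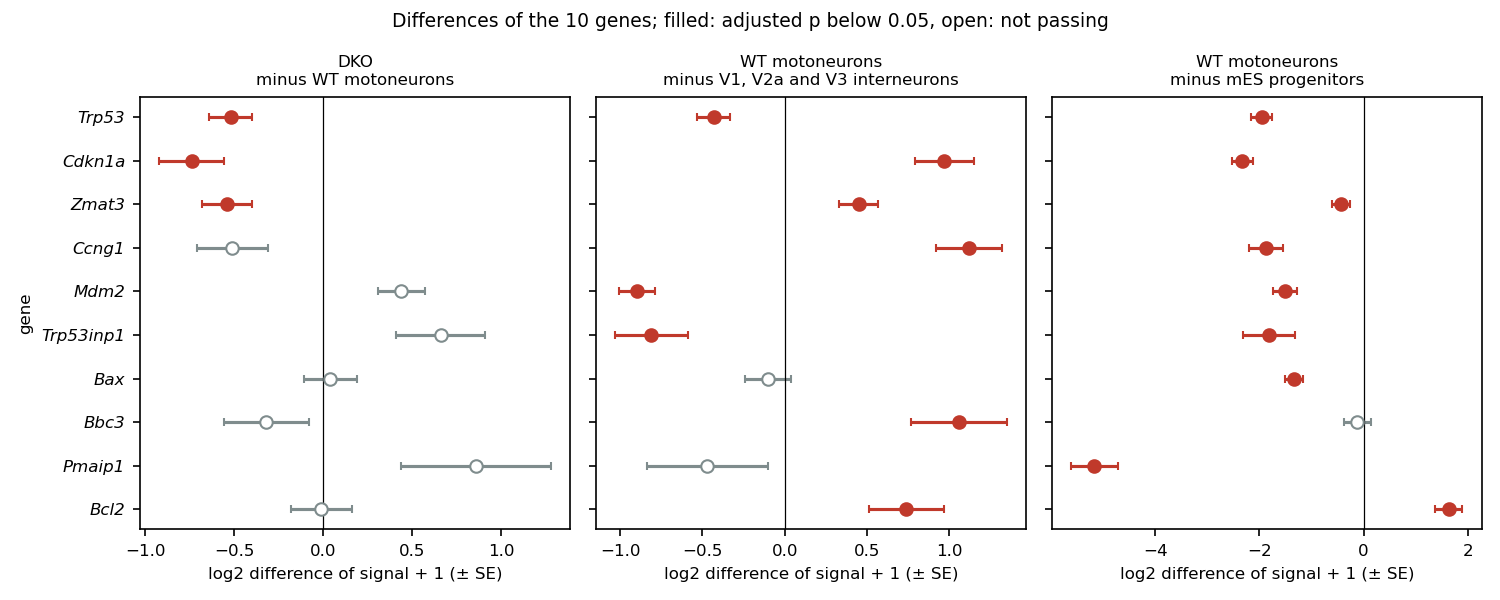
Log2 difference of signal + 1 (x axis) for each gene (y axis) in 3 comparisons; points are limma estimates, bars ± 1 SE, and filled points have an adjusted p below 0.05. The x scales differ between panels. Trp53, Cdkn1a and Zmat3 are filled on the left side in DKO minus WT, and 8 of 10 genes and 9 of 10 genes are filled in the other panels.

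The ratio of Mdm2 to Trp53 signal, looked at after both genes' values were known, was 1.26 and 1.13 in DKO motoneurons, against 0.520 to 0.728 in WT motoneurons. It was 0.803 to 0.914 in the interneurons, 0.238 in pMN and 0.850 in NP. The 2 DKO libraries were the only 2 of the 13 libraries with more Mdm2 than Trp53 signal. The Bax to Bcl2 ratio was 16.2 and 15.6 in DKO and 11.1 to 21.0 in WT, so the DKO libraries lay inside the WT range.

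Mdm2 signal in the deposited transcript table was shared by 2 RefSeq models that differ in sequence. The transcript NM_001288586 held 51.1% and 49.8% of Mdm2 signal in the DKO libraries, against 0%, 7.9%, 13.8%, 20.9%, 24.6% and 27.3% in the 6 WT libraries. The remaining transcript, NM_010786, had a signal of 171.9 and 175.4 in DKO and 174.1 to 242.4 in WT. The higher DKO mean of Mdm2 thus stood on NM_001288586, at 179.4 and 173.7 in DKO, against 0 to 74.3 in WT. In the interneurons its share was 2.0% in V1, 50.4% in V2a and 38.9% in V3. How reads were divided between transcripts is not given in the sources used here, so these shares carry an error that could not be measured. Trp53inp1 transcripts showed no like pattern, since NM_001199105 held 52.3% in DKO replicate 1 and 5.3% in DKO replicate 2.

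**Figure D3:**
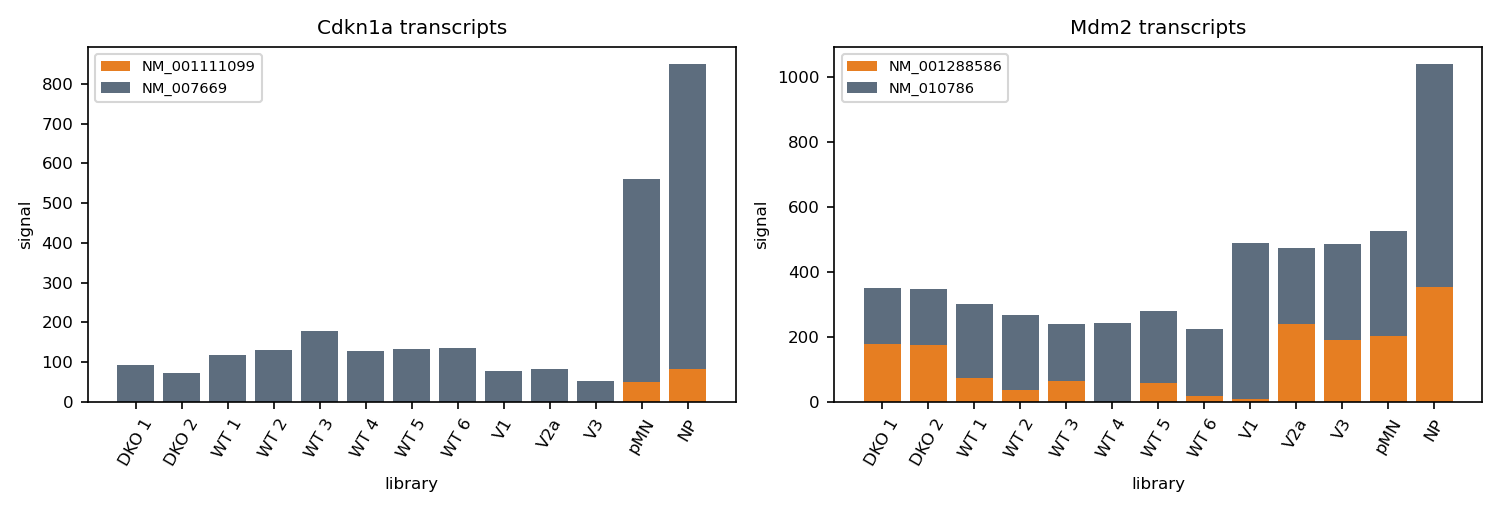
Signal (y axis) of the RefSeq transcripts of Cdkn1a and of Mdm2 in each library (x axis); each stacked bar is 1 library and its height is the gene's signal. The Mdm2 transcript NM_001288586 is at 179.4 and 173.7 in the DKO libraries and at most 74.3 in the WT libraries, and the Cdkn1a transcript NM_001111099 is seen in pMN and NP alone.

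Other genes of the same pathways were compared between the genotypes by list. Over all genes tested, 3.22% rose and 4.77% fell. Of 29 tested p53 targets outside the 10 members, 2 rose and 1 fell, while 26 stayed above the threshold in p, and the median log2 difference was 0.00. An unadjusted p below 0.05 was reached by 12 of the 29 (limma), with no share over all genes to set beside it. Plk2, a polo-like kinase gene, rose to 1060 ± 72.2 in DKO, against 492.9 ± 161.3 in WT (1.17 ± 0.27; limma, adjusted p = 0.028). Gadd45a, a DNA damage response gene, rose to 188.5 ± 11.1 in DKO, against 109.5 ± 24.0 in WT (0.80 ± 0.21; limma, adjusted p = 0.0386). Zfp365 fell to 15.4 ± 3.55 in DKO, against 31.3 ± 4.51 in WT (-0.98 ± 0.24; limma, adjusted p = 0.0316). Sums of 10 dissociation stress markers were 7241 and 8188 in DKO and 2538 to 12170 in WT, and their part in these differences was not tested.

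Among 12 tested genes of the p53 family and its regulators, Mdm4, the Mdm2 relative that holds p53 inactive, rose and none fell; 3 had an unadjusted p below 0.05. Mdm4 averaged 508.1 ± 9.47 in DKO and 279.8 ± 71.4 in WT motoneurons (0.90 ± 0.24; limma, adjusted p = 0.0456). Neither the 3 tested prosurvival relatives of Bcl2 nor the 8 tested BH3-only and effector relatives had a call, and 1 gene of each list had an unadjusted p below 0.05 (limma). Of 19 apoptosome, caspase and inhibitor genes, Casp6 fell, at 39.3 in DKO and 76.7 in WT on average (-0.97 ± 0.22; limma, adjusted p = 0.0246), and none rose; 4 had an unadjusted p below 0.05. Of 13 genes around the RB pathway, the D cyclin genes Ccnd2 and Ccnd3 fell and none rose, with 3 at an unadjusted p below 0.05. Ccnd3 averaged 39.6 ± 7.43 in DKO and 112.6 ± 25.6 in WT (-1.47 ± 0.23; limma, adjusted p = 0.00495), and Ccnd2 averaged 7.33 in DKO and 25.7 in WT (-1.66 ± 0.31; limma, adjusted p = 0.0116). Summed signal of 6 markers of cycling cells was 54.0 and 58.9 in DKO, against 112.5 to 212.2 in WT, and 3 of the 6 fell. Summed signal of 5 neural progenitor markers was 2411 and 2034 in DKO, against 3950 to 5410 in WT, and Vim was the 1 of them that fell. Most of that sum was Vim, at 2150 and 1809 in DKO and 3601 to 5184 in WT. Vim was at only 1501 in the NP progenitors, so the sum is a poor measure of progenitor cells here. The DKO and WT ranges of Sox2, Sox1, Nes and Hes5 overlapped. Summed signal of 4 mesenchyme markers was 3.60 and 2.37 in DKO, against 5.12 to 20.1 in WT, with no call among the 3 tested and none at an unadjusted p below 0.05 (limma). The part of such cells in the lower Trp53, Cdkn1a, Zmat3, Ccnd2 and Ccnd3 signal of DKO motoneurons was not tested.

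The second question was how motoneurons differ from interneurons of the same stage. WT motoneurons had higher Ccng1, Bbc3, Cdkn1a, Bcl2 and Zmat3 than V1, V2a and V3 interneurons as a class, and lower Mdm2, Trp53inp1 and Trp53. The 5 of 10 members called higher stand against 17.7% of 16486 genes tested, and the 3 called lower against 15.2%. The ranges of 6 members did not overlap, against 33.1% of all genes. The members' median log2 difference was 0.17, against -0.04 over all genes. The same 6 WT libraries serve here and in the comparison with DKO, so the results of the comparisons are not independent.

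Ccng1 was at 303.0 to 577.9 in WT motoneurons, against 156.3, 150.8 and 224.3 in V1, V2a and V3 (1.12 ± 0.20; limma, adjusted p = 0.00207). Cdkn1a was at 118.2 to 178.4 in WT motoneurons, against 77.4, 81.3 and 52.4 in V1, V2a and V3 (0.97 ± 0.18; limma, adjusted p = 0.00269). For both genes every WT library was above every interneuron library. Zmat3 had 205.6 to 291.3 in WT motoneurons, against 183.5, 185.2 and 190.7 in V1, V2a and V3 (0.45 ± 0.12; limma, adjusted p = 0.0202). The p53 regulators ran the other way. Mdm2 had 225.8 to 301.4 in WT motoneurons, against 489.0, 475.2 and 485.9 in V1, V2a and V3 (-0.90 ± 0.11; limma, adjusted p = 0.000247). Trp53 had 367.6 to 466.6 in WT motoneurons, against 584.8, 519.8 and 604.8 in V1, V2a and V3 (-0.43 ± 0.10; limma, adjusted p = 0.0104). Trp53inp1 had 101.0 to 220.4 in WT motoneurons, against 244.0, 242.5 and 291.0 in V1, V2a and V3 (-0.81 ± 0.22; limma, adjusted p = 0.0173). All 3 were lower in every WT library than in any interneuron library.

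Among the death genes, Bbc3 was the higher of the BH3-only members in WT motoneurons, at 142.2 to 309.0, against 99.96, 81.9 and 191.5 in V1, V2a and V3 (1.06 ± 0.29; limma, adjusted p = 0.0174). The V3 value lay inside the WT range, and the call was lost without the V1 (0.0538) or V2a (0.0816) library and against WT replicates 2, 3 and 4 alone (0.107). Bcl2 had 56.3 to 80.4 in WT motoneurons, against 59.4, 37.5 and 28.4 in V1, V2a and V3 (0.74 ± 0.23; limma, adjusted p = 0.0287). It missed the threshold without V2a (0.0893), V3 (0.111) or WT replicates 5 (0.0572) or 6 (0.0509), and against either set of 3 WT libraries (0.137 and 0.0852). Zmat3 missed it without V1 (0.0509) or V2a (0.0634) and against WT replicates 1, 5 and 6 alone (0.0745), and Trp53inp1 without V3 (0.0598). Bax averaged 1048 ± 152.1 in WT motoneurons and 1116 ± 110.5 in the interneurons (-0.10 ± 0.14; limma, adjusted p = 0.586). Pmaip1 averaged 6.89 ± 2.74 in WT motoneurons and 9.54 ± 2.27 in the interneurons (-0.47 ± 0.37; limma, adjusted p = 0.332). The Bax to Bcl2 ratio was 11.1 to 21.0 in WT motoneurons, against 20.8 in V1, 29.1 in V2a and 35.9 in V3. With 1 library per interneuron type, differences among the types have no replicate check. Summed blood markers were 2781 in the V2a library and summed mesenchyme markers 805.1 in the V3 library, and the part of these cells was not tested.

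Hrk, the gene for the BH3-only protein Harakiri, had the largest difference between motoneurons and interneurons among the 3 called genes of the BH3-only and effector list. It averaged 482.6 ± 48.6 in WT motoneurons and 20.7 ± 11.4 in the interneurons, a 23.3-fold difference (4.61 ± 0.27; limma, adjusted p = 2.46e-06). Its signal was 394.2 and 403.7 in the DKO libraries and 400.9 to 537.9 in the WT libraries. Bok, a Bax relative, was also higher in WT motoneurons, at 403.5 ± 72.9, against 184.8 ± 54.7 in the interneurons (1.14 ± 0.19; limma, adjusted p = 0.00152). Bmf, another BH3-only gene, was lower, at 40.7 ± 8.11 in WT motoneurons and 120.4 ± 36.4 in the interneurons (-1.51 ± 0.24; limma, adjusted p = 0.00109). The other 5 of the 8 genes did not pass. No prosurvival relative of Bcl2 passed among the 3 tested, and 2 had an unadjusted p below 0.05 (limma).

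Over all genes tested, 17.7% were higher in WT motoneurons than in the interneurons and 15.2% lower. Of 28 tested p53 targets outside the members, 4 were higher in WT motoneurons, 6 lower and 18 not past the threshold, with a median of 0.08. Zfp365 led, at 31.3 ± 4.51 in WT motoneurons and 4.60 ± 2.96 in the interneurons (2.67 ± 0.34; limma, adjusted p = 0.000304). Perp, a membrane protein gene of p53 apoptosis, was at 36.9 ± 7.67 in WT motoneurons and 7.98 ± 5.66 in the interneurons. Psrc1 and the death receptor gene Tnfrsf10b were lower in WT motoneurons, by 1.85 and 1.70 on the log2 scale (limma, adjusted p = 0.00955 and 0.00771). Of 12 genes of the p53 family and regulators, 7 were lower and none higher, with a median of -0.53 and 9 at an unadjusted p below 0.05 (limma). They included the kinase gene Chek2 (-2.02), Mdm4 (-0.91) and the acetyltransferase genes Ep300 (-0.81) and Crebbp (-0.80). Mdm4 averaged 279.8 ± 71.4 in WT motoneurons and 510.1 ± 35.4 in the interneurons (limma, adjusted p = 0.00897). Of 19 apoptosome genes, Cycs, the gene for cytochrome c, was higher (0.81) and Casp2 (-0.75) and Diablo (-0.46) were lower. Of 14 RB pathway genes, Cdkn2d was higher (0.51), and Cdk2 (-1.76), Ccnd1 (-1.47), Rbl1 (-0.91) and Cdk4 (-0.66) were lower. Cycling markers summed to 112.5 to 212.2 in WT motoneurons, against 82.5 in V1, 541.2 in V2a and 1268 in V3, and their part in these differences was not tested.

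**Figure D4:**
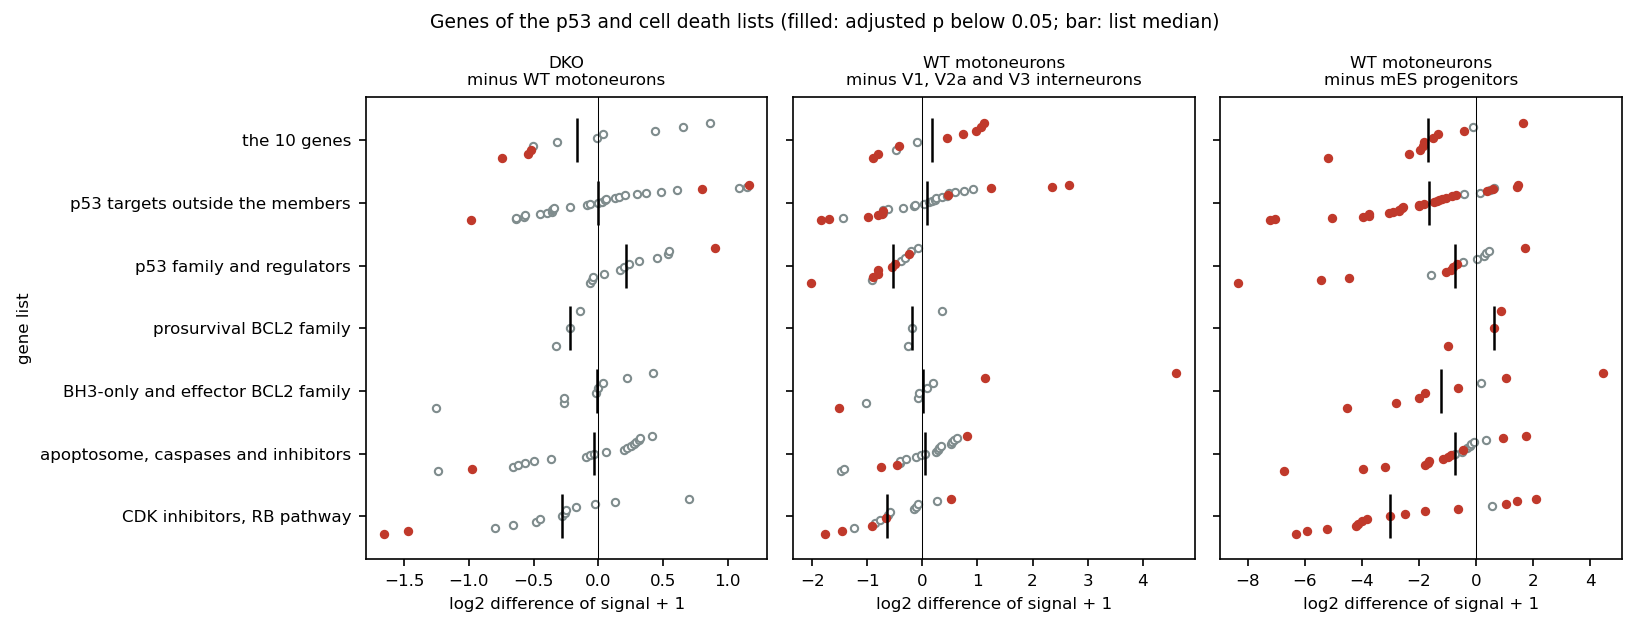
Log2 difference of signal + 1 (x axis, its scale differing between panels) for the genes of each list (y axis) in 3 comparisons; each point is 1 tested gene, vertical bars are list medians, and filled points have a limma adjusted p below 0.05. In WT motoneurons minus mES progenitors most p53 targets lie below 0, at a median of -1.63, while in DKO minus WT they centre on 0.00.

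The third comparison set WT motoneurons against the pMN and NP progenitors as a class, which differ from them in stage, in origin and in sorting together, so that these cannot be told apart. Of the 10 members, 8 were lower in WT motoneurons, Bcl2 was higher and Bbc3 did not pass. The share of all 17134 genes called lower was 36.2% and that called higher 30.0%, and 9 of the 10 members had ranges that did not overlap, against 66.1% of all genes. The members' median was -1.67, against -0.12 over all genes.

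Pmaip1 differed most, at 3.58 to 10.4 in WT motoneurons, against 181.2 in pMN and 396.6 in NP (-5.17 ± 0.45; limma, adjusted p = 2.83e-06). Cdkn1a was at 118.2 to 178.4 in WT motoneurons, against 560.0 in pMN and 850.0 in NP (-2.33 ± 0.20; limma, adjusted p = 2.65e-06). Trp53 was at 367.6 to 466.6 in WT motoneurons, against 2205 in pMN and 1226 in NP (-1.96 ± 0.20; limma, adjusted p = 1.02e-05). For each of these genes both progenitor libraries were above every WT library. Ccng1, Mdm2 and Bax were lower in WT motoneurons by 1.87, 1.51 and 1.34 on the log2 scale (limma, adjusted p = 0.000496, 0.000177 and 4.69e-05). Trp53inp1 (-1.82 ± 0.50; adjusted p = 0.00852) leaned on the NP library, since pMN had 228.7 and NP 1182, and without NP its difference was -0.64 with an adjusted p of 0.194 (limma). It also missed against WT replicates 2, 3 and 4 alone (0.0584) or 1, 5 and 6 alone (0.0511). Zmat3 (-0.43 ± 0.17; adjusted p = 0.0444) was lost without NP (0.282), without WT replicate 1, 3, 4 or 6 (0.0618 to 0.0764), against either set of 3 WT libraries (0.112 for both), under median-ratio rescaling (0.0584) and with a constant variance prior (0.0711). Against either set of 3 WT libraries 6 members were then lower.

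Bcl2 was the member with the reverse order, at 56.3 to 80.4 in WT motoneurons, against 28.4 in pMN and 15.4 in NP (1.64 ± 0.26; limma, adjusted p = 0.00024). Bbc3 averaged 249.7 ± 57.1 in WT motoneurons and 264.3 ± 25.4 in the progenitors (-0.12 ± 0.26; limma, adjusted p = 0.705). The Bax to Bcl2 ratio was 11.1 to 21.0 in WT motoneurons, against 98.5 in pMN and 161.9 in NP. Of the prosurvival relatives tested, Bcl2l1, which encodes Bcl-xL, averaged 992.5 ± 79.0 in WT motoneurons and 543.7 ± 81.2 in the progenitors (0.87; limma, adjusted p = 0.000202). Bcl2l2 was also higher in WT motoneurons (0.63), and Mcl1 lower (-0.96). Hrk again stood high in WT motoneurons, at 482.6 ± 48.6, against 22.9 in pMN and 18.8 in NP (4.47 ± 0.16; limma, adjusted p = 4.32e-09). Most of its list went the other way. Of the 8 tested BH3-only and effector genes, 2 were higher in WT motoneurons, Hrk and Bok (1.06), and 5 were lower, with a median of -1.21. Over all genes 30.0% were higher and 36.2% lower. Casp9, the initiator caspase gene of the mitochondrial route, was higher in WT motoneurons by 0.94 on the log2 scale (limma, adjusted p = 0.00289). Of the 19 apoptosome genes 10 were lower, among them Birc5 (-6.71), Casp8 (-3.98) and Birc3 (-3.18).

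Over all genes tested, 36.2% were lower in WT motoneurons than in the progenitors and 30.0% higher. Of 30 p53 targets outside the members, 22 were lower in WT motoneurons, 4 higher and 4 not past the threshold, with a median of -1.63. The differences were largest for Psrc1 (-7.23), Gtse1 (-7.04), Eda2r (-5.04) and Tnfrsf10b (-3.95). Psrc1 and Gtse1 also take part in mitosis, and summed cycling markers were 112.5 to 212.2 in WT motoneurons, against 11410 in pMN and 9903 in NP. Their part in the differences of this list was not tested. Cdkn2a, whose locus encodes the Mdm2 inhibitor p19Arf and the kinase inhibitor p16Ink4a, was listed at 0 in all 11 spinal libraries and had 226.5 in pMN and 460.4 in NP. Of 14 tested regulators 7 were lower in WT motoneurons, and Trp53bp1, a p53-binding DNA repair factor gene, was higher (1.73; limma, adjusted p = 1.19e-06). Of 15 RB pathway genes 11 were lower, and Rbl2 (2.12), Rb1 (1.46) and Cdkn2d (1.06) were higher.

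p53 binds DNA as pairs of short half-sites, and promoters of the members were read for them because several of these genes moved together between progenitors and neurons. RefSeq promoter windows (GRCm38.p6), which span 250 bases before to 50 after a start, were given for 7 of the 10 members, in 10 windows. The p53 half-site consensus, searched by that name's usual definition with no mismatch, reads the same on both strands. It was found in windows of 5 of these 7 members. Of all 32851 windows, 8.4% hold at least 1 match. That is a share of windows and not of genes, so the member count has no like share beside it. The stretches around the matches are printed 5′ to 3′ on the gene's strand with the half-site in capitals, from chr7:45467075-45467114 (- strand, Bax), chr10:117710920-117710959 (- strand, Mdm2), chr11:40755447-40755486 (- strand, Ccng1), chr11:69580269-69580308 (+ strand, Trp53) and chr17:29090891-29090952 (+ strand, Cdkn1a).
Bax: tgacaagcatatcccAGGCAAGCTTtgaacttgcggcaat
Mdm2: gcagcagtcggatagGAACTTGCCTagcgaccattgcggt
Ccng1: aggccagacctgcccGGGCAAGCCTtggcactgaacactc
Trp53: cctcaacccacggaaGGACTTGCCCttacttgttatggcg
Cdkn1a: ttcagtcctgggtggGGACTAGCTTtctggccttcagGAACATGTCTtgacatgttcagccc
The matches begin 201 bases upstream of the start in Bax, 186 in Mdm2, 185 in Ccng1, 75 in Trp53, and 73 and 51 in Cdkn1a. Windows with at least 2 matches made up 0.36% of all windows. A match describes these letters and is no measure of binding.

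Cdkn1a has 2 RefSeq transcripts, and the half-sites lie just before the more upstream start. That transcript, NM_001111099, begins at chr17 position 29090979 and was listed at 0 in all 11 spinal libraries, where 3 reads would have given 2.14 to 8.55. It had 49.2 in pMN, 8.8% of the gene's signal, and 81.5 in NP, 9.6%. The bulk of Cdkn1a signal was assigned to NM_007669 in every library, whose start at position 29093769 had no half-site match in its window. At this depth a small contribution of the upstream transcript in neurons was not detectable.

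The progenitor libraries differed from each other as well, without a replicate check. No member was at least 2-fold higher in pMN than in NP, against 8.32% of 16792 genes, and 3 of 10 were at least 2-fold lower, against 16.7%. Trp53inp1 had 228.7 in pMN and 1182 in NP. Ccng1 had 864.0 in pMN and 2233 in NP, and Pmaip1 had 181.2 in pMN and 396.6 in NP. Trp53 itself ran the other way, at 2205 in pMN and 1226 in NP. Its inhibitor Mdm2 had 525.4 in pMN and 1041 in NP. Of the 30 other p53 targets, Trp53i11 and Plk3 were at least 2-fold higher in pMN, and Fas, Perp, Polk, Eda2r, Ddit4 and Rrm2b were at least 2-fold lower. The sorted pMN library had 1495 of Olig2, the gene behind its reporter, against 191.2 in the unsorted NP library, and summed pluripotency markers were 1612 in pMN and 1937 in NP.

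**Figure D5:**
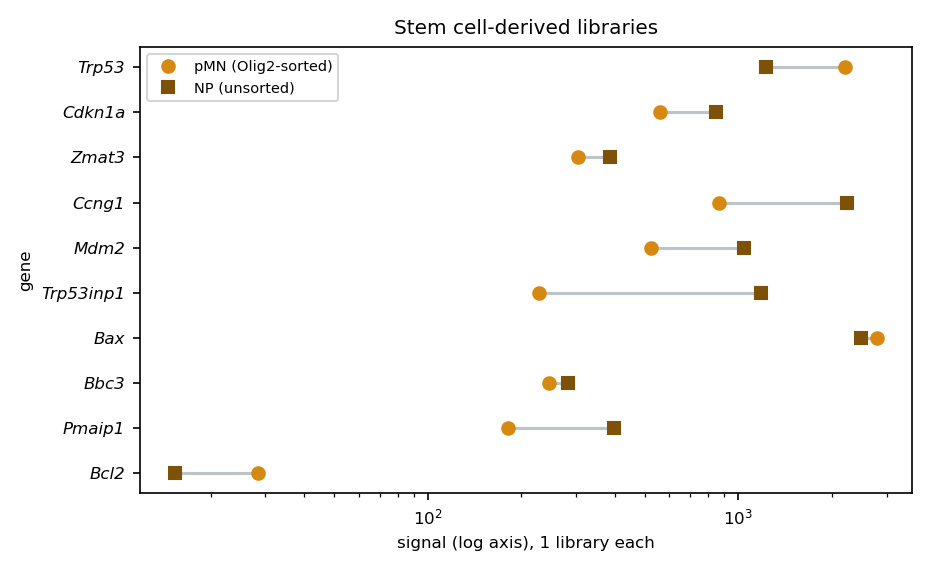
Signal (x axis, log scale) of the 10 genes in the pMN (circles) and NP (squares) libraries, 1 library each, joined by a line. The widest gap is that of Trp53inp1, at 228.7 in pMN and 1182 in NP.

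Across libraries the members did not vary as 1 block. Mdm2 and Trp53inp1 followed each other most steadily, with a Pearson correlation of log2 signal of 0.92 over the 13 libraries, 0.87 over the 11 spinal libraries and 0.77 over the 6 WT libraries. Cdkn1a and Mdm2 ran together over all 13 libraries (0.46) and in opposite directions over the 11 spinal libraries (-0.88). These values describe libraries that fall into cell types and share their normalization. By the same measure, the genes most like Trp53 over the 13 libraries, among 13719 ranked, were Apex1 (0.993), Ptch1 (0.99) and Raver1 (0.987). Those most like Cdkn1a were Aldoa (0.986), Ttc27 (0.985) and Slc2a3 (0.977), and those most like Bcl2 were BC030500 (0.974), Gm19345 (0.968) and Lsamp (0.967). Exons of Cdkn1a, Bax and Bcl2 overlap other annotated genes (AC167363.2, Gm45808 and D630008O14Rik), a pseudogene Trp53-ps is annotated, and the library kit does not mark strand, so reads of these partners cannot be told apart in those values.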

How the data were processed

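Per the labels' protocols, cords were dissociated with papain and sorted, and RNA selected with oligo-dT went into TruSeq v2 libraries. The values used are a signal per gene and per transcript of RefSeq models, made and deposited by the authors. According to the submitters' processing notes, DESeq, bedtools, mm9 and mm10 were involved, with no role stated; which aligner and counter were used is not given in the sources used here. For 76.9% to 78.3% of low genes with a single transcript, signal times length came within 0.1 of a multiple of a constant particular to the library, which gave approximate depths. A floor plate sample in the labels was not used here.

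limma 3.58.1 (R 4.3.3) was run with a trended prior on the log2 of the deposited signal plus 1. Genes needed an average signal of 1 or more over the compared libraries. Tests were two-sided, Benjamini-Hochberg adjusted over all genes, at a threshold of 0.05. This log2 scale understates changes of low genes. The design also named a count test, which did not apply since the deposited values are not counts. The code was tested on simulated data. The labels do not state whether replicates are separate animals; p-values then measure the spread between libraries only, which may be technical. No library was a copy of another (highest correlation 0.9927).

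The members and the gene lists were chosen with earlier results of these data known. All members are named, and from each list up to 4 called genes with the largest log2 difference per comparison. Some genes that this rule would name are not reported here. Pidd1 and Tigar appear in the table as Lrdd and 9630033F20Rik and were matched by RefSeq accession. Gene positions and 3′ UTRs are from GENCODE M21 on GRCm38, sequences from RefSeq (GRCm38.p6). Alternatives were the pseudocount, the filter, the scaling, the variance prior, the replicate block, subsets of WT libraries and each library left out.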

Additional observations from a re-analysis of the deposited data

Results flagged for a closer look

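Among the 10 members, 3 had a WT motoneuron library far from the other 5, by the gap to the nearest library as a share of the whole range, which exceeded 0.625. Chance gives such a gap in about 1 of 20 groups of values. Cdkn1a was at 178.4 in WT replicate 3, where the others had 118.2 to 134.8 (gap share 0.724). That library also had the highest Rn45s signal, 27943, and the highest sum of dissociation stress markers, 12170. Ccng1 was at 577.9 in WT replicate 2, where the others had 303.0 to 385.0 (gap share 0.702). Bbc3 was at 142.2 in WT replicate 2, where the others had 247.3 to 309.0 (gap share 0.63). Whether the condition of those libraries plays a part was not tested.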

How the results depend on the processing

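Between DKO and WT motoneurons, 523 genes rose and 776 fell over the whole table, with 0 and 3 of the members among them. Quantile normalization gave 1 member higher. With a constant variance prior 491 genes and 0 members fell. Against WT replicates 2, 3 and 4 alone 1282 genes rose and 1170 fell, with 1 member higher and Bcl2 at 0.078 on the log2 scale. Against WT replicates 1, 5 and 6 alone 985 rose and 1330 fell. With 1 library left out, genes that rose numbered 27 to 797 and genes that fell 70 to 1235, members that rose 0 to 2 and members that fell 0 to 4; the lowest counts came without a DKO library and the highest without WT replicate 2. Bax then ranged over -0.044 to 0.077 and Bcl2 over -0.061 to 0.048, so neither had a stable sign. A fit with the replicate block gave 120 genes higher and 94 lower, 0 members lower and Bbc3 at 0.050. Nothing in the labels ties same-numbered libraries, so the main fit did not pair them. Deviations of same-numbered libraries correlated at -0.0463 and 0.0134. With 2 DKO libraries the deviations of one are the exact opposite of the other's, so these correlations cannot decide whether the samples are paired.

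In WT motoneurons minus interneurons, 3 members were higher against either set of 3 WT libraries, and 1553 genes were lower against WT replicates 1, 5 and 6. With 1 library left out, 2 to 5 members were higher and 1483 to 2702 genes lower. In WT motoneurons minus mES progenitors, Bbc3 was 0.006 against WT replicates 1, 5 and 6 alone and ranged over -0.216 to 0.036 with 1 library left out. For these changes the cause was not tested. When 1 of 2 libraries is left out, the lone one is assumed to vary like the other group.

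Depth limits Pmaip1 most, which rested on about 9 reads in WT replicate 2 and 11 in DKO replicate 1. Member levels summed from the transcript table equalled those of the gene table.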
